A study of Mus musculus with 40 samples.

Results

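The 10 genes described here lie in the mitochondrial genome and encode subunits of the respiratory chain and of ATP synthase. Subunits of complex I, the NADH dehydrogenase, come from mt-Nd1, mt-Nd2, mt-Nd4 and mt-Nd5. The gene mt-Cytb encodes cytochrome b of complex III, mt-Co1, mt-Co2 and mt-Co3 encode the catalytic core of complex IV, the cytochrome c oxidase, and mt-Atp6 and mt-Atp8 encode parts of the proton channel of ATP synthase. They were taken by name, by a rule that sets no threshold on a measured value, and are 10 of the 13 mitochondrially encoded protein genes, 10 of the 28467 genes in the bulk table and 10 of the 32285 genes in the nucleus table. All 10 passed the filter on low counts in every bulk comparison.

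The study followed the right kidney of male C57BL/6 mice, 8 to 12 weeks old, after the left kidney had been removed under isoflurane (unilateral nephrectomy, UNx) or after a sham operation in which both kidneys stayed in place. Mice of both kinds were operated on in the same way otherwise, and the series text gives saline and the pain relief buprenorphine at surgery. No allele or transgene is named for any group. Bulk RNA-seq covered 6 sham and 6 UNx mice at each of 24, 48 and 72 h, and single-nucleus RNA-seq covered 2 sham and 2 UNx mice at 24 h. The 40 samples carry 40 different mouse numbers, so every replicate is its own animal. By label, batch 1 holds the 24 h bulk libraries, and batch 2 the bulk libraries of both later times. In the nuclei, replicate 1 of each group is in batch 3 and replicate 2 in batch 4. The time of 24 h and the first labelled batch cannot be told apart, whereas sham and UNx of each time share a labelled batch.

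Mitochondrial DNA is transcribed from both strands into long precursor RNAs, which are cut into ribosomal RNAs, transfer RNAs and messenger RNAs, and most of the messenger RNAs receive a short poly(A) tail. The nuclear genome supplies the remaining respiratory chain subunits and all the factors that copy, transcribe and process mitochondrial DNA and its RNA. Kidney tubule cells, the proximal tubule above all, are packed with mitochondria, and the ATP made there drives the reabsorption of salt and solutes. The bulk kit selected polyadenylated RNA, so what it counts is tailed RNA.

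In the GRCm38 annotation all 10 genes lie on the same strand of chromosome M as single exons. The order is mt-Nd1 (2751 to 3707), mt-Nd2 (3914 to 4951), mt-Co1 (5328 to 6872), mt-Co2 (7013 to 7696), mt-Atp8 (7766 to 7969), mt-Atp6 (7927 to 8607), mt-Co3 (8607 to 9390), mt-Nd4 (10167 to 11544), mt-Nd5 (11742 to 13565) and mt-Cytb (14145 to 15288). The reading frames of mt-Atp8 and mt-Atp6 share 43 bases, and those of mt-Atp6 and mt-Co3 share 1 base. Several of the genes also have near-identical copies in the nuclear genome, which bear directly on the counts below. A block on chromosome 1 (minus strand) holds 5 of them: Gm28661 matches 681 bases of mt-Co2 (24614885 to 24615565), Gm28437 matches 783 bases of mt-Co3 (24613189 to 24613971), Gm10925 matches 678 bases of mt-Atp6 (24613974 to 24614651) and Gm28439 matches the first 876 bases of mt-Nd4 (24611535 to 24612410), all with 0 differences. The fifth, Gm29216 (24615706 to 24616197), matches the last 483 bases of mt-Co1 with 1 difference. Copies were searched for among annotated transcripts only, so a copy without an annotated transcript would be missed. In that search mt-Nd1 and mt-Atp8 had no copy at 90% identity over 100 bases or more. The copies of mt-Nd2, mt-Nd5 and mt-Cytb, farther from the gene in sequence, held under 10 CPM in every group mean. CPM stands for counts per 1000000 counts of a library's size, scaled with TMM factors.

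The next sequences, from the GENCODE M21 transcripts of GRCm38 and given from 5′ to 3′, are shown because they decide which gene a read can be given to. The first pair is the stretch with the only base that separates Gm29216 from mt-Co1, in capitals; it is the substitution A1066T, counted from the first base of mt-Co1.
mt-Co1: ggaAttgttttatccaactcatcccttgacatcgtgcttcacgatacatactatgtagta
Gm29216: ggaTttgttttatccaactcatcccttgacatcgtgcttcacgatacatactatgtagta
A copy of the more distant kind is shown for contrast. Gm13339 matches 510 bases of mt-Nd2 with 17 differences, and capitals mark those that fall in this window of 60 bases.
mt-Nd2: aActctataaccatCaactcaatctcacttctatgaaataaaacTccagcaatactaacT
Gm13339: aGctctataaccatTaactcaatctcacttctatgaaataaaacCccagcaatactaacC
The last set holds the end of mt-Atp8 and the start of mt-Atp6, with the 43 bases that both genes use in capitals, and the start of Gm10925, which cannot be told from mt-Atp6 by any base in the window.
mt-Atp8: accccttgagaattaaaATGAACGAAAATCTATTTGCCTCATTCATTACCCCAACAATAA
mt-Atp6: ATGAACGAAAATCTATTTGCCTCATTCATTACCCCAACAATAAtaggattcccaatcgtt
Gm10925: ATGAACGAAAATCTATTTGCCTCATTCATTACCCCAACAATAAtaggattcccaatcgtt

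Libraries did not all look alike, and this was apparent before any comparison of UNx with sham. Depth ran from 14868494 to 24108587 estimated counts. The 10 genes took 25.0% ± 1.08 (SD, n = 6) of all counts in the 24 h shams, 22.9% ± 1.15 in the 24 h UNx, 14.3% ± 0.595 in the 48 h shams, 14.2% ± 0.649 in the 72 h shams and 14.7% ± 0.607 in the 72 h UNx libraries. In the 48 h UNx group replicates 1 to 5 stood at 25.6% to 26.1%, and replicate 6 stood at 14.9%. For the 10 genes the CPM of UNx replicate 6 of 48 h are therefore given apart from its group. Fold changes at 48 h are from all 12 libraries, replicate 6 included, unless stated otherwise. Counts over the other lists at 48 h are given with and without replicate 6.

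The same split was seen in genes outside the mitochondrial genome. A library profile score was computed from 145 pseudogenes other than the copies and set to 0 at the mean of the 48 and 72 h shams and to 1 at the mean of the 24 h shams. It was 0.951 to 1.04 in the 24 h shams, 0.620 to 0.870 in the 24 h UNx, 0.591 to 0.682 in UNx replicates 1 to 5 of 48 h and 0.0242 in replicate 6. The 48 h shams (-0.0393 to 0.0727), the 72 h shams (-0.0851 to 0.0490) and the 72 h UNx libraries (-0.0581 to 0.130) made up the other end. The copy Gm28439 followed the same line: it held counts in 17 libraries, namely all 12 of 24 h and UNx replicates 1 to 5 of 48 h, and stood at 0 in the remaining 19. Because the score moves with UNx at both 24 and 48 h, the counts of calls at these times, and the fold changes of several genes, are also given with the score in the model. Apart from replicate 6 of 48 h, the scores of sham and UNx did not overlap at these times. Such a fit can hardly tell the score from UNx. Lost calls and turned signs in it do not show that UNx had no effect. Proximal tubule markers summed to between 8666 and 12163 CPM in every group (7 of 7 detected), and adrenal cortex markers summed to at most 1.13 CPM. Of the lists for other cells, thin limb markers (4 of 4 detected) summed to 892 to 1240 CPM in the 48 h shams and 721 to 835 CPM in the 48 h UNx, replicate 6 included; red blood cell markers (5 of 5) summed to 119 to 210 CPM at 24 h and 263 to 1088 CPM later. Fat markers (5 of 5) summed to 19.7 to 29.1 CPM in the 24 h shams, 23.5 to 708 CPM in the 24 h UNx, 27.5 to 413 CPM in the 48 h shams and 14.2 to 165 CPM in the 48 h UNx. Fibroblast markers (4 of 4) summed to 50.2 to 88.9 CPM in the 24 h shams, 70.9 to 184 CPM in the 24 h UNx, 128 to 207 CPM in the 48 h shams and 65.1 to 189.8 CPM in the 48 h UNx. Their part in the results was not tested. In bulk RNA, fewer cells of a type and less RNA per cell cannot be told apart.

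Estimated counts were divided between a gene and its copy in proportions that varied from mouse to mouse. Over the 36 libraries the copy held 42.1% to 87.7% of the counts of mt-Co2 and Gm28661 together, 36.2% to 94.3% for mt-Co3 and Gm28437, 20.0% to 89.6% for mt-Atp6 and Gm10925, 0% to 30.0% for mt-Nd4 and Gm28439, and 4.11% to 10.4% for mt-Co1 and Gm29216. Here and below, values with Gm28661 also hold the copy Gm13341. Those with Gm29216 also hold Gm13340 and Gm11512, and those with Gm10925 also hold AC124578.3. For mt-Co2, mt-Co3 and mt-Atp6 the sum of gene and copies was steadier, relative to its mean, in each group. For mt-Nd4 and mt-Co1 that did not hold in every group. For mt-Co2 in the 48 h shams the coefficient of variation was 36.6% alone and 1.75% with its copies, and for mt-Atp6 it was 32.0% and 2.32%. For these 5 genes most fold changes are given alone and with the copies, since the counts do not show how much RNA came from the nuclear copy.

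**Figure D1:**
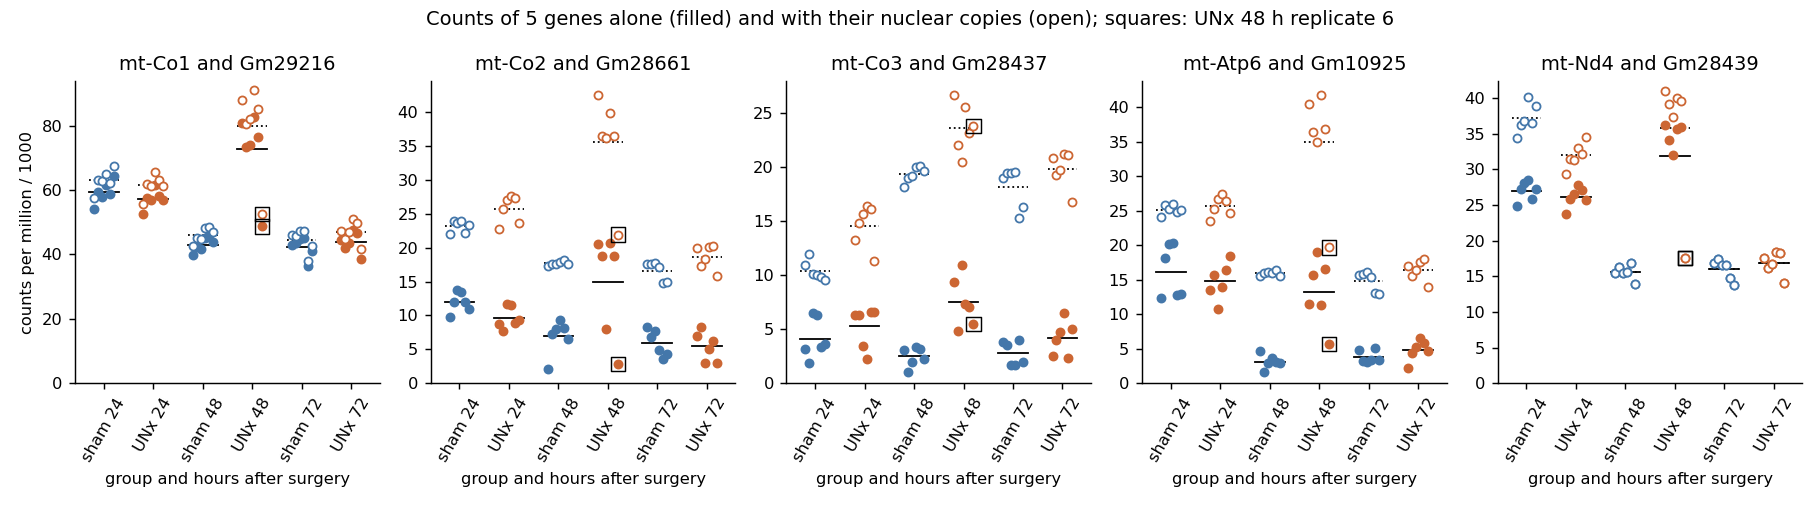
CPM (divided by 1000, linear axis from 0) of 5 genes alone (filled points) and summed with their nuclear copies (open points), by group and hours after surgery; points are mice, solid and dotted bars the means, and squares mark UNx replicate 6 of 48 h. Open points of mt-Co2, mt-Co3 and mt-Atp6 cluster more tightly within a group than filled ones, and the open and filled points of mt-Nd4 coincide in the later shams and the 72 h UNx mice, where Gm28439 stood at 0.

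Levels were compared between genes per kilobase of transcript, with copies added. In the 48 h shams mt-Co1 led at 29761 ± 1422 CPM per kb (SD, n = 6), followed by mt-Co2 at 25858 ± 454, mt-Co3 at 24699 ± 907 and mt-Atp6 at 23371 ± 541. The middle was held by mt-Cytb at 17767 ± 723 and mt-Atp8 at 16329 ± 1743 CPM per kb. The complex I genes came last, with mt-Nd1 at 12612 ± 835, mt-Nd4 at 11333 ± 708, mt-Nd2 at 10030.4 ± 523 and mt-Nd5 at 6794 ± 706 CPM per kb. Within that order the neighbours mt-Co2 and mt-Co3, mt-Co3 and mt-Atp6, mt-Cytb and mt-Atp8, and mt-Nd1 and mt-Nd4 overlapped in mean ± SD.

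The order was another one in the 24 h shams. There mt-Cytb was first at 47553 ± 5839 CPM per kb and mt-Co3, among the 3 highest in the 48 h shams, was last at 13269 ± 1140.4, just under mt-Atp8 at 14209 ± 1864. Between them stood mt-Co1 at 40811 ± 2124, mt-Atp6 at 36966 ± 1013, mt-Co2 at 33922 ± 1271, mt-Nd1 at 32425 ± 2141, mt-Nd2 at 29148 ± 1859.7, mt-Nd4 at 26974 ± 1505 and mt-Nd5 at 20391 ± 2463 CPM per kb. Here mt-Cytb and mt-Co1, mt-Co2 and mt-Nd1, mt-Nd1 and mt-Nd2, mt-Nd2 and mt-Nd4, and mt-Atp8 and mt-Co3 overlapped in mean ± SD. Shams of 24 h and of 48 h differ both in time after surgery and in labelled batch, which cannot be told apart.

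**Figure D2:**
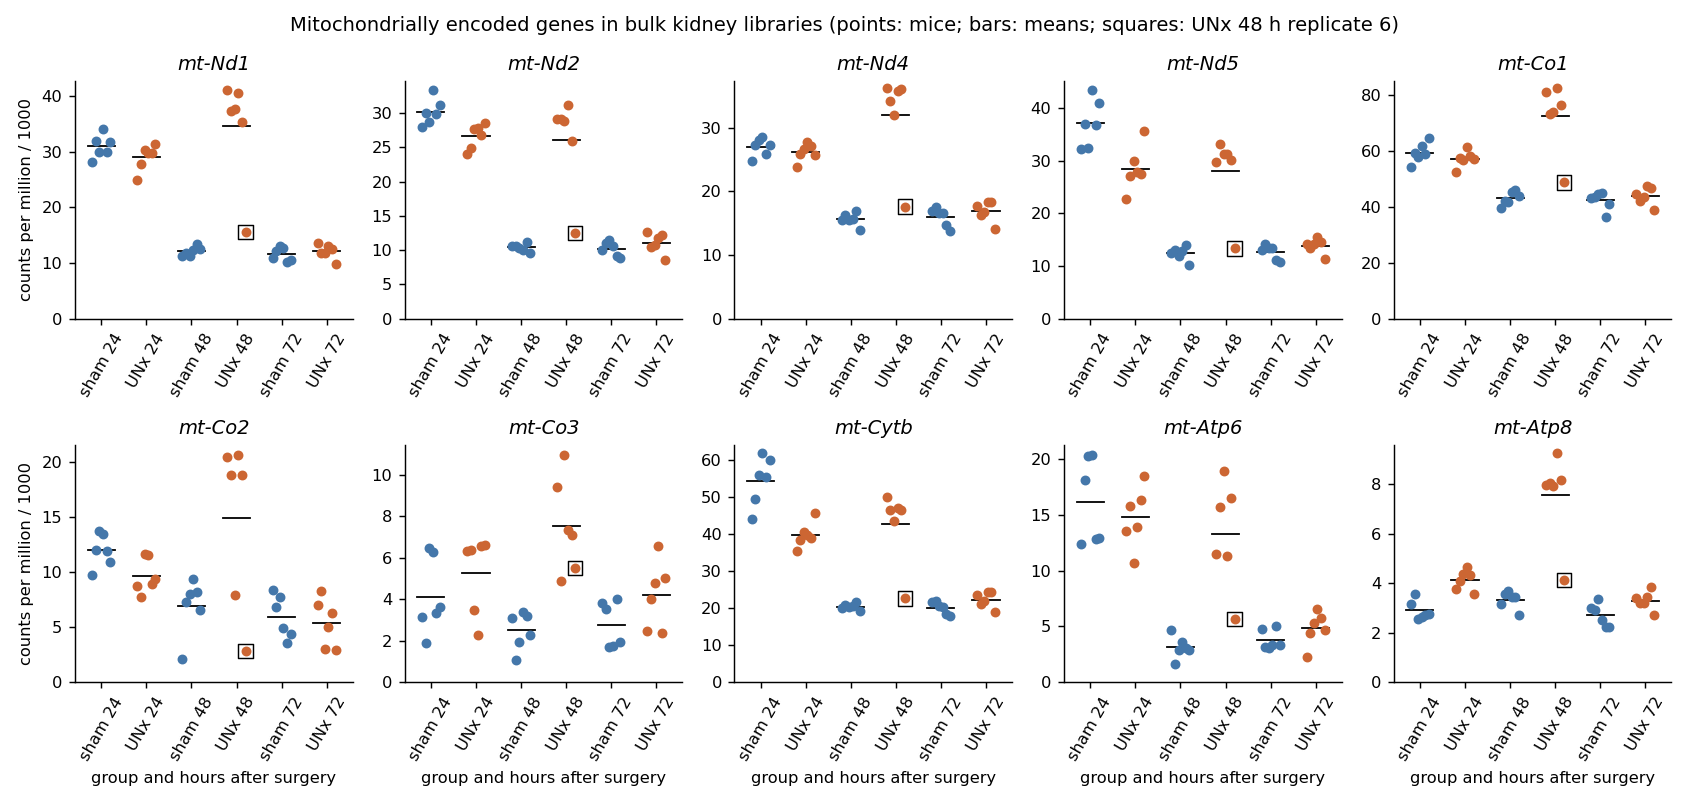
CPM (divided by 1000, linear axis from 0) of each of the 10 genes in the 36 bulk libraries, by group and hours after surgery; points are mice, bars the group means, and squares mark UNx replicate 6 of 48 h. In the 48 h UNx group 5 mice stand well above the shams for mt-Nd1, mt-Nd2, mt-Nd4, mt-Nd5 and mt-Cytb and the square lies near the shams, while the 72 h groups overlap.

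At 24 h the genes were called in both directions after nephrectomy: mt-Atp8 rose, and mt-Cytb and mt-Nd5 fell. That is 1 of the 10 called higher and 2 called lower by edgeR's quasi-likelihood test at an adjusted p under 0.05, against 14.2% of all 14104 tested genes called higher and 13.1% called lower (27.3% in either direction). The median log2 fold change of the 10 genes was -0.10, and that of all tested genes was 0.0054. With the counts of the copies added to their genes, mt-Co3 also rose and mt-Nd4 also fell, so that 5 were called against 27.4% of all genes. With the profile score in the model 0 of the 10 and 90 of all 14104 genes were called, and the sign of 7 of the 10 fold changes turned. The scores of sham and UNx did not overlap at 24 h, so this fit cannot decide whether UNx changed these genes.

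Among the complex I genes, mt-Nd5 was at 32343 at the lowest, 36944 at the median and 43511 at the highest CPM in the shams and at 22647 at the lowest, 27691 at the median and 35654 at the highest CPM in UNx. The other 5 UNx mice were below every sham, while UNx replicate 6 was inside the sham range. The log2 fold change was -0.38 ± 0.10 (SE, n = 6 and 6; edgeR adjusted p = 0.0152), and it was 0.22 with the profile score in the model. For mt-Nd4 the gene alone gave -0.036 ± 0.064 (edgeR adjusted p = 0.717). With Gm28439 added, levels were 37169.9 ± 2074 CPM (SD, n = 6) in the shams and 31988 ± 1777 CPM in UNx, a log2 fold change of -0.21 ± 0.057 (edgeR adjusted p = 0.0155). Neither mt-Nd1 (-0.086 ± 0.073) nor mt-Nd2 (-0.17 ± 0.069) passed the threshold; the edgeR adjusted p of mt-Nd2 was 0.0766.

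The complex III gene mt-Cytb was at 43928 at the lowest, 55564 at the median and 61877 at the highest CPM in the shams and at 35257 at the lowest, 39284 at the median and 45695 at the highest CPM in UNx. Only the highest UNx mouse reached above the lowest sham. Its log2 fold change of -0.44 ± 0.090 (edgeR adjusted p = 0.00259) was the largest fall among the 10, and it was 0.039 with the profile score in the model.

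Of the complex IV genes, mt-Co3 alone ranged from 1890.0 to 6479 CPM in the shams and from 2271 to 6606 CPM in UNx, and the fold change of 0.36 ± 0.30 was not called (edgeR adjusted p = 0.386). With Gm28437 added it was at 9562 at the lowest, 10067 at the median and 11966 at the highest CPM in the shams and at 11296 at the lowest, 15244 at the median and 16436 at the highest CPM in UNx. In 5 of the 6 UNx mice this sum exceeded every sham. The fold change was then 0.50 ± 0.090 on the log2 scale (edgeR adjusted p = 0.00114). For mt-Co2 the sign depended on the copy: -0.30 ± 0.11 alone and 0.16 ± 0.061 with Gm28661, with edgeR adjusted p = 0.0562 and 0.0662. The value for mt-Co1 was -0.042 ± 0.067 alone and -0.025 ± 0.057 with Gm29216.

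Of the ATP synthase genes, mt-Atp8 was called and mt-Atp6 was not, and the difference between them was not tested. Their reading frames share 43 bases, and how reads there were divided between the genes was not tested. mt-Atp8 was at 2561 at the lowest, 2744 at the median and 3556 at the highest CPM in the shams and at 3568 at the lowest, 4211 at the median and 4652 at the highest CPM in UNx. Every UNx mouse was above every sham. The log2 fold change was 0.52 ± 0.090 (edgeR adjusted p = 0.000888), or 1.44-fold, and it was 0.078 with the profile score in the model. mt-Atp6 gave -0.12 ± 0.15 alone and 0.039 ± 0.053 with Gm10925, neither past the threshold.

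At 48 h the picture was of 5 mice and 1. In UNx replicates 1 to 5 the 10 genes together held 293009 to 316749 CPM, against 122522 to 140649 CPM in the 6 shams, while UNx replicate 6 held 148302 CPM. With all 12 libraries, 9 of the 10 genes were called higher and 0 lower, against 16.9% of 14280 genes called higher and 16.0% called lower (32.9% in either direction). Without replicate 6 all 10 were called higher, against 21.9% of 14425 genes called higher and 19.8% called lower (41.6% in either direction), and with the copies added as well all 10 were called higher, against 21.8% (41.6% in either direction; 19.8% lower). The median log2 fold change of the 10 was 1.17 with all libraries and 1.33 without replicate 6, beside medians of all genes of -0.040 and -0.021. The 10 fold changes ran from 0.74 to 2.06 with all libraries and from 0.85 to 2.24 without replicate 6. With replicates 1 to 5 left out, so that replicate 6 alone stood for UNx, 0 of the 10 were called and 0 of all genes, with 2232 genes at an unadjusted edgeR p under 0.05; the lone library is assumed there to vary like the shams. With the profile score in the model 0 of the 10 and 0 of all 14280 genes were called by edgeR, with 2098 genes at an unadjusted p under 0.05.

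**Figure D3:**
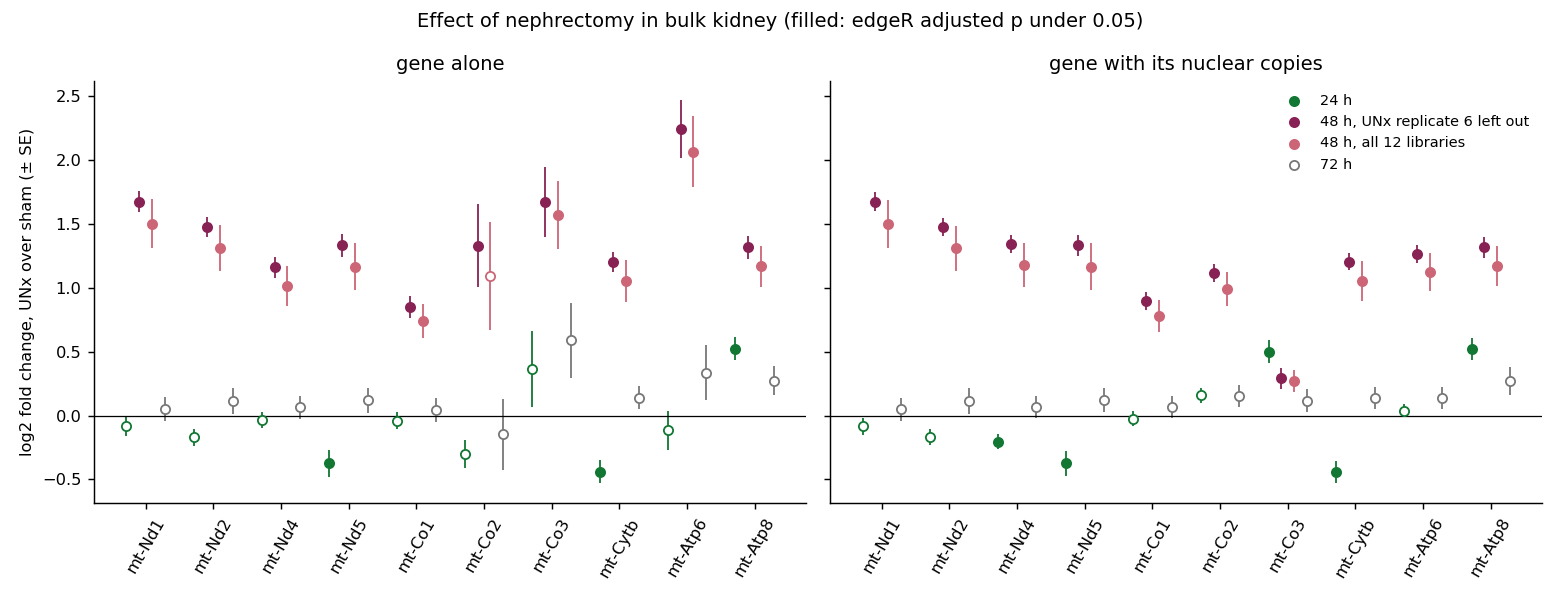
Log2 fold changes of UNx over sham (± SE; linear axis) for the 10 genes at each time, on the left for the gene alone and on the right with its nuclear copies added; filled points have an edgeR adjusted p under 0.05, and 48 h is drawn with and without UNx replicate 6. The 48 h points lie above 0 for all 10 genes in both panels; adding the copies lowers mt-Co3 from 1.57 to 0.27 and mt-Atp6 from 2.06 to 1.12 at 48 h.

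All 4 complex I genes rose. The values of mt-Nd1 were 41191, 37326, 37672, 40552 and 35325 CPM in UNx replicates 1 to 5 and 15554 CPM in replicate 6. Its shams were at 11261 at the lowest, 12025 at the median and 13350.0 at the highest CPM. Replicate 6 lay just above the shams and the other UNx mice far above both. The log2 fold change was 1.50 ± 0.19 with all libraries (edgeR adjusted p = 0.000346) and 1.67 ± 0.085 without replicate 6, and it was 0.35 when replicate 6 stood alone and 0.42 with the profile score in the model. mt-Nd2 was at 29160.5, 29164, 28833, 31197 and 25979.5 CPM in replicates 1 to 5, at 12467 CPM in replicate 6 and at 9602 to 11189 CPM in the shams, which gave 1.31 ± 0.18. For mt-Nd5 replicates 1 to 5 held 29719.6, 33233, 31302, 31221 and 30101 CPM, replicate 6 held 13323 CPM, inside the sham range of 10122 to 13896, and the fold change was 1.17 ± 0.18. mt-Nd4 gave 1.01 ± 0.16 alone and 1.18 ± 0.17 with Gm28439; replicates 1 to 5 held 37342 to 41035 CPM of the sum, replicate 6 17586 CPM and the shams 13975 to 16859 CPM.

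The complex III gene mt-Cytb rose by 1.05 ± 0.16 (edgeR adjusted p = 0.000652), or 1.20 ± 0.080 without replicate 6. It was at 49841, 46579, 43538, 46939 and 46550.0 CPM in replicates 1 to 5, 22592 CPM in replicate 6 and 19107 to 21576 CPM in the shams.

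Complex IV genes rose by amounts that depended on how the copies were counted. The largest counts were those of mt-Co1: 80898, 73238, 73917, 82657 and 76438 CPM in replicates 1 to 5, 48687 CPM in replicate 6, and 39704 at the lowest, 42982 at the median and 45952 at the highest CPM in the shams. Its fold change was 0.74 ± 0.13 (edgeR adjusted p = 0.00141) and 0.78 ± 0.13 with Gm29216. With all 12 libraries mt-Co2 alone missed the threshold at 1.09 ± 0.42 (edgeR adjusted p = 0.0617). It was called higher without replicate 6. The counts of mt-Co2 were uneven between mice. Alone it was at 20509, 18821, 7937, 20661 and 18829 CPM in replicates 1 to 5 and 2838 CPM in replicate 6. Summed with its copies it was at 42558, 36431, 36151, 39855 and 36409 CPM in replicates 1 to 5, 21923 CPM in replicate 6 and 17290.1 to 18193 CPM in the shams. All UNx mice, replicate 6 included, were above every sham, with a fold change of 0.99 ± 0.13 (edgeR adjusted p = 0.000353). mt-Co3 went from 1.57 ± 0.26 alone to 0.27 ± 0.087 with Gm28437 (edgeR adjusted p = 0.0289). Its sum was at 18214 to 20094 CPM in the shams, 20483 to 26710.4 CPM in replicates 1 to 5 and 23855 CPM in replicate 6. It is the 1 gene of the 10 for which replicate 6 lay inside the range of the other UNx mice once the copies were added.

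Both ATP synthase genes rose. mt-Atp8, for which no annotated copy was found, was at 7978, 8063, 7918, 9247 and 8156 CPM in replicates 1 to 5 and 4131 CPM in replicate 6. Its shams were at 2699.6 at the lowest, 3444 at the median and 3681 at the highest CPM. The log2 fold change was 1.17 ± 0.16 (edgeR adjusted p = 0.000380). mt-Atp6 showed the largest single value at 48 h, 2.06 ± 0.28 alone, and 1.12 ± 0.15 with Gm10925. The sum was at 40545, 36412, 34933, 41822 and 36835 CPM in replicates 1 to 5, 19685 CPM in replicate 6 and 15488 to 16441 CPM in the shams.

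At 72 h none of the 10 genes was called in edgeR, against 1.71% of 14556 genes (249 genes called, 2515 at an unadjusted p under 0.05), and none with the copies added, against 1.73% (1.22% higher); mt-Atp8 was the only 1 of the 10 with an unadjusted p under 0.05. The median log2 fold change of the 10 was 0.12, beside -0.0042 for all genes. mt-Nd1 was at 10206 at the lowest, 11528 at the median and 13032 at the highest CPM in the shams and 9849.5 at the lowest, 12157 at the median and 13552 at the highest CPM in UNx, and mt-Cytb was at 17912 to 21891 and 18945 to 24288 CPM. Sham and UNx ranges overlapped for both genes. The widest fold changes were those of mt-Co3 (0.59 ± 0.29 alone, 0.12 with Gm28437), mt-Atp6 (0.34 ± 0.22 alone, 0.14 with Gm10925) and mt-Atp8 (0.27 ± 0.11; edgeR adjusted p = 0.222). Those of mt-Nd1, mt-Nd2, mt-Nd4, mt-Nd5, mt-Co1 and mt-Cytb ran from 0.043 to 0.14, with SEs of 0.090 to 0.10. mt-Co2 was at -0.15 ± 0.28 alone and 0.15 ± 0.086 with Gm28661.

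The effect of UNx was compared between times in 1 fit over the 36 libraries, UNx replicate 6 of 48 h included. Each time has its own shams. From 24 to 48 h, times that also differ in labelled batch, the effect rose for all 10 genes, against 19.3% of 15093 genes with a difference called in that direction and 37.0% in either; with the copies added 9 were called, against the same 37.0%. For the genes alone the difference in log2 fold change was largest for mt-Atp6 (2.21 ± 0.34) and mt-Nd1 (1.62 ± 0.19), and smallest for mt-Co1 (0.81 ± 0.12) and mt-Atp8 (0.68 ± 0.18). With the copies added mt-Nd1 was highest, and mt-Atp6 came to 1.11 ± 0.14, mt-Co2 to 0.86 ± 0.13, mt-Co1 to 0.83 ± 0.12 and mt-Nd4 to 1.41 ± 0.16. For mt-Co3 it was 1.23 ± 0.45 alone and -0.20 ± 0.12 with Gm28437 added, the lowest of the 10, where it was no longer called (edgeR adjusted p = 0.186). From 48 to 72 h the effect fell for 8 of the 10, against 8.78% of all genes called in that direction and 5.86% in the other, the exceptions being mt-Co2 (-1.24 ± 0.46; edgeR adjusted p = 0.0659) and mt-Co3 (-0.99 ± 0.45; edgeR adjusted p = 0.133). With the copies added it fell for 9 of the 10, against the same shares of all genes: mt-Co2 was then called (-0.85 ± 0.13; edgeR adjusted p = 0.000193) and mt-Co3 was not (-0.16 ± 0.12; edgeR adjusted p = 0.387). Between 24 and 72 h mt-Cytb alone was called, with a difference of 0.60 ± 0.17 (edgeR adjusted p = 0.0308) against 2.74% of genes called in that direction and 1.41% in the other (4.15% in all, 4.16% with the copies added); that call was lost without any 1 of UNx replicates 1, 4 and 5 of 24 h or 3, 4 and 5 of 72 h. With the profile score in the model 0 of the 10 were called in each of these 3 differences, and 1, 0 and 14 of all 15093 genes in the same order (edgeR; 1433, 1368 and 1639 at an unadjusted p under 0.05). The 48 h and 72 h shams, of 1 labelled batch, gave no call: 0 of the 10 genes and 0.0% of all genes were called by edgeR, with 708 genes at an unadjusted p under 0.05.

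Of the other mitochondrially encoded RNAs of the table, none was called higher at 48 h with all 12 libraries. They are the 2 ribosomal RNAs mt-Rnr1 and mt-Rnr2 and the complex I genes mt-Nd3, mt-Nd4l and mt-Nd6; the last is encoded on the opposite strand. At 24 h 0 of these 5 were called, against 27.3% of all genes. At 48 h 0 were called higher and 2 lower, against 16.9% and 16.0% of all genes. The 2 were mt-Nd3 at -1.02 ± 0.33 (edgeR adjusted p = 0.0294) and mt-Nd4l at -0.65 ± 0.18 (edgeR adjusted p = 0.0150). Both have a near-identical copy on chromosome 1, Gm28438 and Gm10222, and these values are of the gene alone. With the profile score in the model 0 of all 14280 genes were called at 48 h. The sum of mt-Nd4l and its copy was 2439 ± 254 CPM in the shams and 4412 ± 263 CPM (SD, n = 5) in UNx replicates 1 to 5. The direction of the sum was thus opposite to that of mt-Nd4l alone. No test of this sum is given here, and the sum of mt-Nd3 and its copy is not given. mt-Nd6 was at 154 to 181 CPM in the 48 h shams, 138 to 202 CPM in UNx replicates 1 to 5 and 225 CPM in replicate 6, with a fold change of 0.11 ± 0.11, while its neighbours mt-Nd5 and mt-Cytb on the other strand rose by 1.17 and 1.05. The kit counts tailed RNA only, and whether the strands differed in their response was not tested. mt-Rnr1 (0.60 ± 0.31) and mt-Rnr2 (0.29 ± 0.22) were not called with all 12 libraries; without UNx replicate 6 mt-Rnr1 was called (0.77 ± 0.29; edgeR adjusted p = 0.0495).

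The nuclear-encoded subunits of the same chain, which include all of complex II, were called in both directions too. Of 74 tested subunits, 45 rose and 7 fell at 24 h, with a median log2 fold change of 0.23 against 0.0054 for all genes; of all genes 14.2% were called higher and 13.1% lower. At 48 h 28 rose and 2 fell (median 0.082), against 16.9% and 16.0% of all genes. Without UNx replicate 6, 31 rose and 21 fell (median 0.053), against 21.9% and 19.8%. The subunits were not counted apart with the profile score in the model. With that score and all libraries of the time, 90 of all 14104 genes were called at 24 h and 0 of 14280 at 48 h. At 72 h 0 were called, against 1.71% of all genes, and 73 of the 74 had a positive fold change (median 0.10). Between the shams of 72 h and 48 h, 2 of the 74 were above 0 (median -0.098) and 0 were called. How far the level of the 72 h shams sets the 72 h values was not tested. By complex, the counts that rose and fell at 24 h were 20 and 4 of 36 for complex I, 2 and 0 of 4 for complex II, 6 and 1 of 9 for complex III, 8 and 0 of 11 for complex IV and 9 and 2 of 14 for complex V. At 48 h they were, in the same order, 15 and 1, 0 and 0, 5 and 0, 4 and 0, and 4 and 1. Without UNx replicate 6 they were 18 and 9, 0 and 1, 5 and 1, 4 and 4, and 4 and 6, so that more complex V subunits fell than rose.

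Named by the lowest p in each list, the 24 h subunits were Ndufv2 of complex I (0.50 ± 0.064), Sdhd of complex II (0.50 ± 0.060), Uqcr10 of complex III (0.38 ± 0.061), Cox5a of complex IV (0.68 ± 0.076) and Atp5g1 of complex V (0.65 ± 0.072), and all of them rose. At 48 h they were Ndufa12 (1.18 ± 0.15), Uqcrb (0.58 ± 0.077), Cox8a (0.61 ± 0.074) and Atp5d (0.77 ± 0.094), which rose, and Sdhb (0.14 ± 0.091; edgeR adjusted p = 0.245), which was not called. Without UNx replicate 6 they were Ndufa12 (1.33 ± 0.065), Cox6a1 (0.99 ± 0.077) and Atp5d (0.87 ± 0.066), which rose, and Sdhc (-0.23 ± 0.066) and Uqcrfs1, the iron-sulfur subunit of complex III (-0.66 ± 0.055), which fell. At 72 h the lowest were Ndufb8 (0.19 ± 0.048; edgeR adjusted p = 0.0635), Sdhc (0.13 ± 0.060), Uqcrq (0.27 ± 0.078), Cox8a (0.35 ± 0.10) and Atp5g1 (0.24 ± 0.083), none called.

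Genes that serve mitochondrial DNA and RNA were called in both directions; of all genes 14.2% were called higher and 13.1% lower at 24 h, 16.9% and 16.0% at 48 h, and 21.9% and 19.8% at 48 h without UNx replicate 6. Of 16 genes for transcription and copying of mitochondrial DNA, 1 rose and 3 fell at 24 h and 2 rose and 2 fell at 48 h; without UNx replicate 6 of 48 h, 3 rose and 4 fell. The lowest p belonged at 24 h to Ssbp1, the single-stranded DNA binding protein of mitochondria (-0.39 ± 0.10), and at 48 h to Top1mt, the mitochondrial topoisomerase (0.35 ± 0.077). Without UNx replicate 6 it belonged to Tfam, which packages mitochondrial DNA and starts its transcription (-0.58 ± 0.066; -0.43 ± 0.14 with all libraries). Of 19 genes that cut, tail or degrade mitochondrial RNA, 4 rose and 1 fell at 24 h and 6 rose and 2 fell at 48 h, led by Ptcd2 (0.37 ± 0.056) and by the exonuclease Rexo2 (0.41 ± 0.066). Without UNx replicate 6 of 48 h, 7 rose and 6 fell, with Fastk lowest in p (0.79 ± 0.078). Of 8 regulators of nuclear genes for mitochondria, 0 rose and 3 fell at 24 h, with Gabpa lowest in p (-0.31 ± 0.053), and 0 rose and 1, Yy1 (-0.26 ± 0.056), fell at 48 h; without UNx replicate 6, 1 rose and 1 fell, with Yy1 again lowest in p (-0.27 ± 0.050). These 3 lists were likewise not counted with the profile score in the model, where 0 of all genes were called at 48 h. At 72 h 0 genes of the 3 lists were called, and the closest was Gabpa (-0.17 ± 0.040, edgeR adjusted p = 0.0503).

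Among the 9114 other genes whose mean log2 CPM reached 3, those whose levels followed the summed 10 genes most closely over the 36 libraries were S100a1 (Pearson r = 0.981), Mlf2 (0.978), Chchd10 (0.974), Mrpl42 (0.972) and Ndufb4c (0.971). These values describe levels across groups that fall into clusters. Within the 12 libraries of a time, r for Chchd10 was 0.920 at 24 h, 0.976 at 48 h and 0.744 at 72 h, and for S100a1 it was 0.848, 0.983 and 0.592. At 48 h the points are 2 clusters as well, with UNx replicate 6 among the shams.

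The nuclei were counted with another method, a droplet kit that reads the 3′ ends of transcripts from sorted nuclei, in 4 mice of 24 h. Mitochondria lie outside the nucleus, so the share of these 10 genes in sorted nuclei is not their level in intact cells; where the RNA came from was not tested. The mice held 5342 (sham replicate 1), 5151 (UNx replicate 1), 2641 (sham replicate 2) and 3366 (UNx replicate 2) nuclei, with medians of 7581, 8370.0, 9909 and 8063 UMIs. Of the 16500 nuclei, 18 barcodes occurred in more than 1 library. The 10 genes took 0.594% of UMIs in sham replicate 1 and 0.910% in UNx replicate 1, which share batch 3, and 4.98% in sham replicate 2 and 7.23% in UNx replicate 2, which share batch 4. No nucleus was without them: the fewest UMIs of the 10 genes in a nucleus were 3, 16, 101 and 99.9 in the same order of mice.

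The share differed more between the batches than between sham and UNx. The share of the 10 genes was 8.38 times as high in batch 4 as in batch 3 among shams and 7.95 times among UNx, and it was 1.53 times as high in UNx as in sham in batch 3 and 1.45 times in batch 4. The excess of UNx held for each of the 10 genes in both batches. In batch 3 the ratio ran from 1.24 for mt-Nd2 and 1.26 for mt-Cytb to 1.66 for mt-Nd5 and 1.68 for mt-Co2. In batch 4 it ran from 1.21 for mt-Atp6 and 1.27 for mt-Co3 to 1.77 for mt-Nd1 and 2.22 for mt-Nd5. Between batches the genes also differed: mt-Nd1 was 4.64 times and mt-Nd5 13.4 times as high in the sham of batch 4 as in that of batch 3.

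With the mouse as replicate and no term for batch, edgeR called 0 of the 10 genes and 0.0% of 19975 genes over all nuclei (DESeq2 called 20 genes, 0 of them among the 10). Leaving out 1 mouse turned the sign: the median log2 fold change of the 10 was 0.77 with all 4 mice, 3.00 without sham replicate 2 and -1.78 without UNx replicate 2. With 1 mouse left out, sham and UNx no longer hold the same batches. These values therefore carry the gap between batches and do not show how steady the difference of UNx from sham was. With the labelled batch as a block, 3 of the 10 rose, against 0.501% of genes called higher and 1.04% in either direction. They were mt-Nd5, at 82.0 and 136 UMIs per 1000000 (sham and UNx) in batch 3 and 1099 and 2441 in batch 4 (1.01 ± 0.14; edgeR adjusted p = 0.0443), mt-Nd1 (0.82 ± 0.11; edgeR adjusted p = 0.0406) and mt-Co2 (0.78 ± 0.11; edgeR adjusted p = 0.0475). The smallest of the 10 was mt-Cytb at 0.49 ± 0.11 (edgeR adjusted p = 0.121). At 24 h in bulk RNA mt-Nd5 was at -0.38 and mt-Cytb at -0.44 on the same log2 scale, from other mice and another kind of RNA sample.

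**Figure D4:**
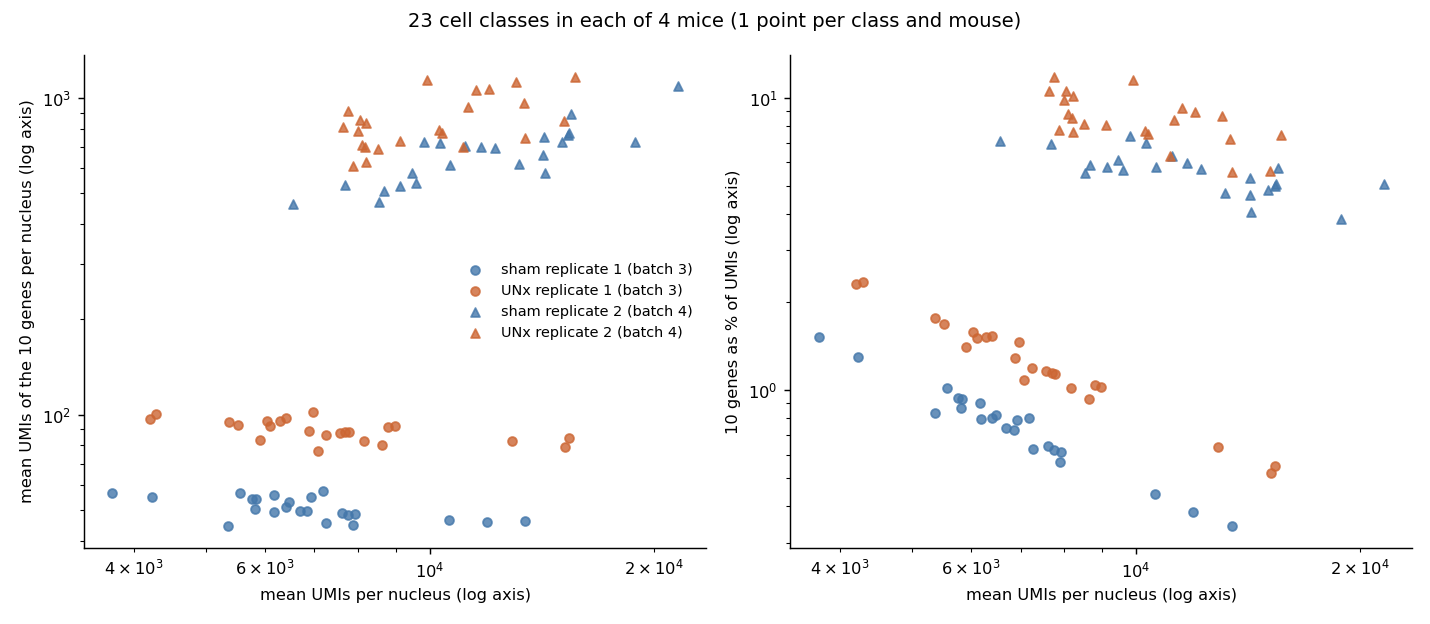
Each of 23 cell classes in each of 4 mice is 1 point; on the left the mean UMIs of the 10 genes per nucleus and on the right their percent of all UMIs, both against mean UMIs per nucleus, all on log axes. In sham replicate 1 the mean UMIs of the 10 genes stay between 44.6 and 57.5 while total UMIs run from 3745 to 13449.9, and the percent is lower in classes of higher depth; the points of batch 4 lie above those of batch 3 in both panels.

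Cell classes, taken from the authors' annotation, differed less in the amount of these RNAs than in depth. In sham replicate 1 the mean UMIs of the 10 genes per nucleus ran from 44.6 to 57.5 over the 23 classes, a 1.29-fold range, while mean total UMIs ran 3.59-fold. In UNx replicate 1 the UMIs of the 10 genes ran 1.33-fold, from 76.8 to 102, and total UMIs 3.66-fold. In batch 4 the UMIs of the 10 genes ran 2.35-fold in the sham (464 to 1090.4) and 1.91-fold in the UNx mouse. Total UMIs ran 3.29-fold and 2.05-fold there. The classes EC1 and EC2, which hold the highest endothelial markers, stood at 1.51% and 1.30% in sham replicate 1 and at 7.01% and 7.38% in sham replicate 2. The proximal tubule classes PTS1, PTS2 and PTS3 stood lowest in the shams, at 0.439%, 0.383% and 0.343% in sham replicate 1 and at 4.65%, 4.05% and 3.86% in sham replicate 2. In sham replicate 1 mt-Co3 gave between 24.3% and 28.3% of the UMIs of the 10 genes over the classes and mt-Co2 between 14.3% and 17.7%, while the rarer mt-Nd5 gave between 0.984% and 1.82% and mt-Atp8 between 0.0376% and 0.259%. How much of these UMIs was free RNA was not tested.

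The names of the classes were checked against markers. Markers of the proximal tubule were highest in PTS1, of the thick ascending limb in CTAL2, of the distal convoluted tubule in DCT, of principal cells in CPC, of intercalated cells in ICB and of fibroblasts in Fib. Thin limb markers were highest in MPC, with DTL1 next. Podocyte and macrophage classes held too few nuclei in some mouse to be compared.

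As a percent of UMIs, UNx exceeded sham in every class. The ratio of the percent of UMIs was above 1 in 23 of 23 classes in both batches, at 1.42 to 1.95 (median 1.64) in batch 3 and 1.20 to 1.82 (median 1.50) in batch 4. Counted as UMIs per nucleus, it was 1.54 to 2.07 in batch 3 and 0.976 to 1.60 in batch 4, where the class Per was below 1. The classes of a mouse share its library, so this is 1 observation per batch and not 23. Without a batch term edgeR called 0 of 228 pairs of gene and class, and 0.0% of all 219721 pairs (1529 at an unadjusted p under 0.05). With the labelled batch as a block, 54 of the 228 pairs rose in 13 classes and 0 fell, against 0.318% of all pairs called higher; the fold change was above 0 in 228 of 228.

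**Figure D5:**
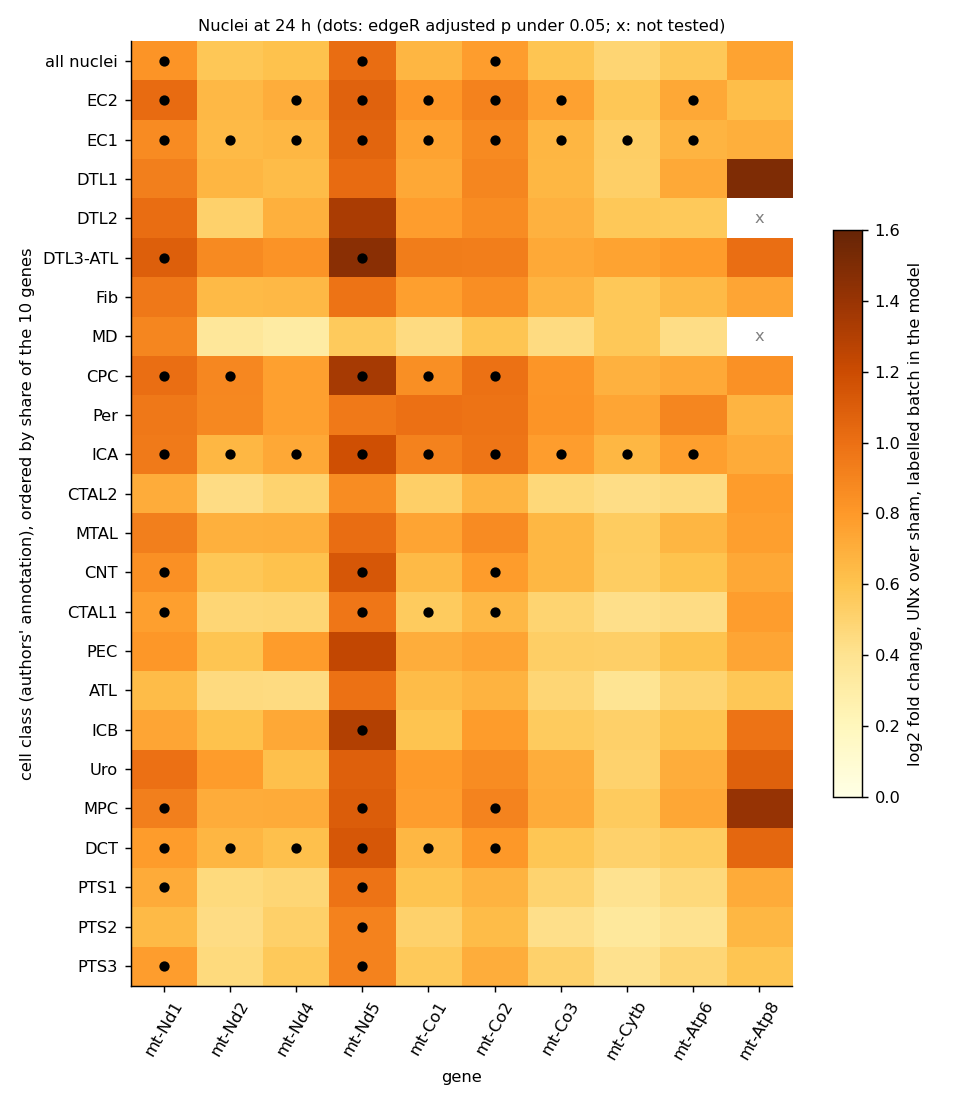
Colour gives the log2 fold change of UNx over sham in nuclei of 24 h, with the labelled batch in the model, for the 10 genes (columns) in all nuclei and in each of 23 classes (rows, ordered by the share of the 10 genes); dots mark an edgeR adjusted p under 0.05 and x marks a pair that was not tested. The columns of mt-Nd5 and mt-Nd1 are dark in most rows and carry 13 and 11 dots over the classes, while mt-Atp8 carries none.

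Class by class, the calls with the block were densest in EC1 (9 of the 10 genes, against 0.836% of genes called there), in the intercalated class ICA (9, against 0.797%) and in EC2 (7, against 0.383%). DCT had 6 (0.481%), CPC 5 (0.203%), CTAL1 4 (0.652%), CNT 3 (0.458%) and MPC 3 (0.391%), and DTL3-ATL 2 (0.122%), PTS1 2 (1.63%), PTS3 2 (2.47%), PTS2 1 (3.03%) and ICB 1 (0.632%). In EC1 the fold change was 1.06 ± 0.15 for mt-Nd5, 0.87 ± 0.12 for mt-Co2 and 0.53 ± 0.13 for mt-Cytb (edgeR adjusted p = 0.0286 for mt-Cytb, and lower for both others). In ICA it was 1.18 ± 0.19 for mt-Nd5 and 0.66 ± 0.17 for mt-Cytb. In PTS1, the class with most nuclei in sham replicate 1, mt-Nd5 stood at 0.98 ± 0.17 and mt-Nd1 at 0.71 ± 0.15 (edgeR adjusted p = 0.0283 and 0.0490), and mt-Cytb at 0.41 ± 0.17 (edgeR adjusted p = 0.352). Whether the effect differed between classes was not tested.

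Gene by gene, the 2 genes with the most calls were complex I genes. mt-Nd5 was called in 13 classes with a median log2 fold change of 1.06, mt-Nd1 in 11 (0.89), mt-Co2 in 8 (0.86), mt-Co1 in 6 (0.73), mt-Nd2 in 4 (0.65), mt-Nd4 in 4 (0.66), mt-Co3 in 3 (0.66), mt-Atp6 in 3 (0.60) and mt-Cytb in 2 (0.53). mt-Atp8 was called in 0 of the 21 classes where it could be tested (median 0.74); it gave 0.0865% to 0.119% of the UMIs of the 10 genes in the 4 mice, and in DTL2 and MD it had too few UMIs to be tested.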

How the data were processed

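Bulk values are estimated counts per gene, deposited by the authors; per the submitters' processing notes they came from Salmon 1.5.0 and GRCm39, after FastQC 0.11.8. They were rounded to whole numbers (50.4% of values above 0 were not whole). Nucleus values are UMI counts deposited by the authors with their cell classes (alevin and Seurat, mm10, per the submitters' processing notes); 13.9% of values above 0 were not whole, and sums per mouse were rounded. No doublet caller was run, and whether doublets had been removed is not given in the sources used here. Each bulk time was fitted with edgeR 4.0.16 in R 4.3.3 (filterByExpr, TMM, quasi-likelihood test, Benjamini-Hochberg adjustment over all tested genes, called at an adjusted p under 0.05), and time differences in 1 fit over 36 libraries. Nucleus counts were added up by mouse, for all nuclei together and for the 23 of 30 classes with at least 10 nuclei in every mouse. DESeq2 1.42.0 and limma 3.58.1 served as alternatives. Statistics were tested on simulated data without a batch effect. For bulk 24 h, edgeR recovered 62 of 99 changes of log2 0.5 and 92 of 97 of log2 1. For all nuclei it recovered 3 of 100 and 70 of 100, and with the block 3 of 97 and 64 of 99. A gene not called in nuclei may thus have changed by such amounts. Names, lengths and positions come from GENCODE M21 on GRCm38 (28340 of 28467 bulk genes named). Nuclear copies were found with blastn 2.17.0 among the annotated transcripts outside chromosome M, at 90% identity or more over 100 bases or more. No 2 libraries of a group differed by as little as sampling noise (90 pairs). Depth was 14868494 to 24108587 estimated counts in bulk, and the number of mice limits the precision. The set of 10 genes and the other lists were proposed with earlier results of these data known, although the rule that picks the genes uses only their names. The text names the 10 genes, the other mitochondrially encoded RNAs, copies at 10 CPM or more in a group mean, the lowest p of each list at each time, and the 5 genes of highest correlation. Same-numbered bulk mice are not paired by the labels; nuclei of the same number share a labelled batch, which is the block used.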

Additional observations from a re-analysis of the deposited data

Results flagged for a closer look

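Dixon's test was applied to 120 groups of values over all 6 groups of mice, where chance gives about 6.0 outlying samples, spread over the groups. It marked 16, and in each of them the sample was UNx replicate 6 of 48 h. The values are not independent, since the genes share libraries and the sums hold the same genes. That library had already been set apart on these same values. The 16 marks therefore restate the split, and their number cannot be weighed against 6.0. Its values in CPM were 15553.6 for mt-Nd1, 12467.1 for mt-Nd2, 17586.2 for mt-Nd4, 13322.9 for mt-Nd5, 48686.6 for mt-Co1, 22592.4 for mt-Cytb and 4131.0 for mt-Atp8. With the copies added they were 12467.3 for mt-Nd2, 17586.2 for mt-Nd4, 13323.4 for mt-Nd5, 52599.4 for mt-Co1, 21923.0 for mt-Co2, 22592.4 for mt-Cytb and 19685.0 for mt-Atp6. The sum of the 10 genes was 148302, or 203716 with copies.

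By the edgeR test of the difference, the effect of UNx on the genes alone was called as differing between times. Of all genes 37.0% were called from 24 to 48 h, 14.6% from 48 to 72 h and 4.15% between 24 and 72 h. The 24 h libraries also differ from the later ones in labelled batch. With its copy added mt-Co3 was at -0.20 from 24 to 48 h and was not called. The call of mt-Cytb was lost without any 1 of several UNx mice. From 24 to 48 h the log2 fold change rose by 1.616 for mt-Nd1, 1.509 for mt-Nd2, 1.078 for mt-Nd4, 1.57 for mt-Nd5, 0.807 for mt-Co1, 1.416 for mt-Co2, 1.234 for mt-Co3, 1.522 for mt-Cytb, 2.209 for mt-Atp6 and 0.6755 for mt-Atp8. From 48 to 72 h it changed by -1.46 for mt-Nd1, -1.206 for mt-Nd2, -0.9557 for mt-Nd4, -1.054 for mt-Nd5, -0.7017 for mt-Co1, -0.922 for mt-Cytb, -1.735 for mt-Atp6 and -0.904 for mt-Atp8. Between 24 and 72 h it changed by 0.6002 for mt-Cytb.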

How the results depend on the processing

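Counts here are of the 10 genes, with the share of all tested genes called under the same setting in brackets. At 24 h the count was 3 (27.3%). It was 5 with DESeq2's Wald test (16.1%), with voom and quality weights (30.8%), and with the copies added under either library size (27.4%). It was 0 with the profile score in the model (0.638%). With 1 replicate left out it was 3 to 5 (21.8% to 29.2%), and 5 without sham replicate 1 (28.1%). At 48 h it was 9 (32.9%), and 0 with the profile score (0.0%). Leaving out 1 replicate gave 9 to 10 (25.8% to 41.6%). With UNx replicates 1 to 5 left out, the median log2 fold change of the 10 was 0.21, or 0.27 with copies. At 24 and 48 h the profile score nearly follows UNx, so a count of 0 or a turned sign with it says little about UNx. With the profile score the 48 h minus 24 h difference went from 10 genes (37.0%) to 0 (0.00663%). The 72 h minus 48 h difference went from 8 (14.6%) to 0 (0.0%). The 72 h minus 24 h count of 1 (4.15%) was 0 with no filter (1.28%) and with the profile score (0.0928%). It was 2 with only the libraries of those times (6.85%). With 1 replicate left out it was 0 to 1, beside 440 of 15188 to 872 of 15186 genes. In nuclei the count of 0 was 3 over all nuclei (1.04%) and 54 over classes (0.72%) with the replicate block. Leaving out 1 mouse gave 0 to 1 over classes. The 1 was in PEC without UNx replicate 1, where 20 of 5186 genes were called. The cause was not tested.

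With the profile score the sign turned at 24 h for mt-Nd1 (0.16), mt-Nd2 (0.049), mt-Nd4 (0.0050), mt-Nd5 (0.22), mt-Co1 (0.030), mt-Cytb (0.039) and mt-Atp6 (0.46), at 48 h for mt-Co2 (-1.17) and at 72 h for mt-Co2 (0.047). It turned for 48 h minus 24 h in mt-Nd4 (-0.021), mt-Nd5 (-0.0061), mt-Co2 (-1.20) and mt-Atp8 (-0.22), for 72 h minus 48 h in mt-Co2 (0.15), and for 72 h minus 24 h in mt-Nd1 (-0.54), mt-Nd2 (-0.39), mt-Nd4 (-0.40), mt-Nd5 (-0.23), mt-Co1 (-0.24), mt-Co2 (-1.05), mt-Co3 (-0.15), mt-Cytb (-0.024) and mt-Atp6 (-0.36). With copies added it turned for mt-Co2 at 24 h (0.16) and 72 h (0.15), mt-Atp6 at 24 h (0.039) and mt-Co3 in 48 h minus 24 h (-0.20) and 72 h minus 24 h (-0.36). With UNx replicates 1 to 5 of 48 h left out mt-Co2 was at -1.30. With 1 replicate left out the 72 h minus 24 h difference of mt-Co2 ran from -0.0038 to 0.29. With 1 mouse left out, all-nuclei fold changes ran from -0.89 to 2.52 for mt-Nd1, -1.76 to 2.89 for mt-Nd2, -1.82 to 3.03 for mt-Nd4, -2.21 to 4.23 for mt-Nd5, -1.99 to 3.33 for mt-Co1, -1.68 to 3.27 for mt-Co2, -1.52 to 2.75 for mt-Co3, -1.79 to 2.77 for mt-Cytb, -1.77 to 2.97 for mt-Atp6 and -1.88 to 3.34 for mt-Atp8. These fits hold no batch term and leave sham and UNx with unequal batches, so the ranges carry the gap between batches.

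With the replicate number as a block in bulk, the counts were 4 at 24 h (22.6% of all genes), 9 at 48 h (30.8%) and 0 at 72 h (0.824%). They were 9 for 48 h minus 24 h (35.7%), 8 for 72 h minus 48 h (13.4%) and 1 for 72 h minus 24 h (3.51%). Same-numbered sham and UNx mice correlated at -0.13 to 0.031 at 24 h, -0.14 to 0.065 at 48 h and -0.29 to 0.13 at 72 h, and 1, 0 and 1 mice correlated best with their own number. Settings chosen after seeing the data were the library size from genes neither on chromosome M nor copies, and leaving out UNx replicates 1 to 5 of 48 h.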
